A study of Homo sapiens with 10 samples.

Results

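The genes described here carry glucose from its uptake to lactate, to acetyl-CoA and into the pentose phosphate pathway. They are 43 listed symbols, chosen by their place in these pathways and matched to the Ensembl identifiers of the count files through GENCODE 29. All 43 were found among the 63677 gene identifiers, and all 43 were among the 16756 genes with enough counts to be tested.

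Glycolysis splits glucose into pyruvate in the cytosol and yields ATP and NADH. Lactate dehydrogenase turns pyruvate into lactate and regenerates NAD+, whereas the mitochondrial pyruvate carrier and the pyruvate dehydrogenase complex bring it into the mitochondrion as acetyl-CoA. The pentose phosphate pathway branches off at glucose 6-phosphate and supplies NADPH and ribose 5-phosphate, which dividing leukaemia cells need for redox balance and nucleotides.

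The libraries come from RS4;11, a human B-cell precursor acute lymphoblastic leukaemia line. The VENins group holds 5 lines grown in parallel under rising concentrations of venetoclax, an inhibitor of the anti-apoptotic protein BCL-2, and kept under it. The VENsens group holds 5 lines grown alongside with the solvent DMSO and kept without the drug. Each line gave 1 library, made from total RNA (TruSeq RNA v2, single-end reads), and per the methods the drug was washed out before analysis. All 10 lines descend from the same parental line, so the p-values below measure the spread between these lines and not between patients. The comparison asks how the transcriptomes of venetoclax-insensitive lines differ from those of sensitive ones. Because only the VENins lines were kept under the drug, insensitivity and exposure to the drug cannot be told apart in it.

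Counts on genes ran from 20631907 to 28323643 per library in VENsens and from 21145316 to 25394653 in VENins. They were 52.7% to 54.2% of the reads listed in each file. Values per line are TMM-scaled CPM, counts brought to a common library size. Levels of different genes are compared as CPM per kilobase of the longest principal messenger of each gene in GENCODE.

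The label was checked against 10 B-cell precursor markers. Their summed level was 3558 to 4016 CPM in the 10 libraries, and averaged over all of them IGLL1, a surrogate light chain of the pre-B-cell receptor, was the most abundant at 610 to 899 CPM. In every VENsens line the B-lineage transcription factor PAX5 exceeded it, at 713 to 827 CPM. In the comparison of the groups 1 of the 10, PAX5, was called lower in VENins (edgeR adjusted p 0.027). Another marker, DNTT, was at 27.3 CPM in VENins 4 and at 1.08 to 8.31 CPM in the other lines. Its edgeR adjusted p was 0.790, and 5.12e-05 with both lines numbered 4 left out. The 4 T-cell markers summed to 0.692 to 1.08 CPM, nearly all of it CD3E. The 3 endothelial markers summed to 0 to 0.194 CPM, with CDH5 at 0 throughout. PECAM1 is also listed at 0 under its GENCODE 29 identifier, but its level was not read, since another identifier could hold its reads. The 5 myeloid markers summed to 12.5 to 18.2 CPM, with CSF1R the most abundant at 6.15 to 11.5 CPM. The 3 fibroblast markers summed to 13.2 to 19.0 CPM, with PDGFRB the most abundant at 11.2 to 16.1 CPM. Of the T-cell, myeloid and fibroblast markers 7 had enough counts to be tested by edgeR. Of these 0 passed the adjusted test, and 1 had an unadjusted p under 0.05 (CSF1R, 0.23 higher on the log2 scale).

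1 library stood apart. Between libraries of a group, chi-squared per degree of freedom was 1.93 to 9.81 for all pairs except those with VENins 5, for which it was 13.3 to 14.3. Without it and without the line number, a comparison chosen after seeing the data, edgeR called 1 of the 43 members (MPC2) beside 502 of 16905 tested genes (2.97%), and 9 members (20.9%) had an unadjusted p under 0.05 beside 20.6% of all tested genes.

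None of the 43 genes passed the adjusted threshold of 0.05 in the comparison of VENins with VENsens by edgeR's quasi-likelihood test, where 33 of all 16756 tested genes did (0.197%). The largest difference was in the glucose transporter gene SLC2A3, lower in VENins by a log2 fold change of -0.45 (SE 0.10, n = 5 lines per group). The next was in MPC2, a subunit of the mitochondrial pyruvate carrier, higher by 0.29 (SE 0.07). Along the body of glycolysis, from hexokinase to pyruvate kinase, the estimates stayed between -0.13 and 0.18. A p that misses the threshold does not show that values did not differ.

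At an unadjusted p under 0.05, 2 members were higher in VENins (MPC2 and LDHA) beside 7.79% of all tested genes, and 2 were lower (SLC2A3 and HK2) beside 8.38%. Together these 4 are 9.30% of the members, and the share over all tested genes was 16.2%. DESeq2 with the line number in the model called 2 members, SLC2A3 and MPC2 (1.3% of all tested genes), and without it the same 2 (4.41%). DESeq2 gave some tested genes no adjusted p, PFKFB2 and ENO2 among them, and these shares count such genes as not called. edgeR without the line number called 1, MPC2 (0.889%). The groups did not overlap for 1 member higher in VENins, again MPC2 (2.36% of all tested genes), and for 0 members lower in VENins (2.3%). The estimate was above 0 for 23 members and below 0 for 20, with a median log2 fold change of 0.02. Over all tested genes 51.1% of the estimates were above 0, and their median was 0.00. Because bulk RNA was measured, fewer cells of a type and less RNA per cell cannot be told apart in any of these values.

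**Figure D1:**
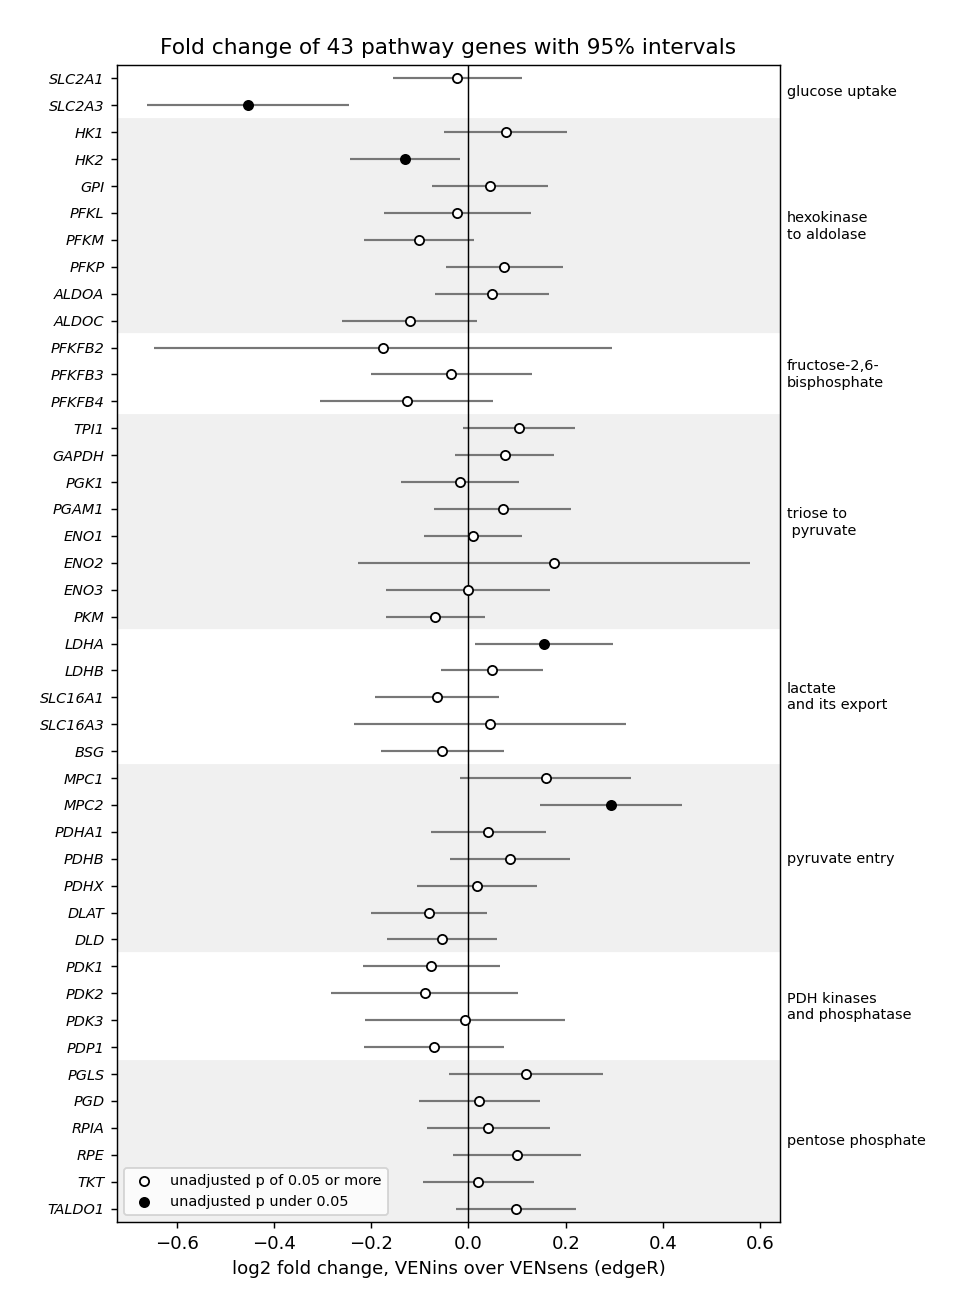
Log2 fold change of VENins over VENsens for the 43 genes in pathway order, with points for edgeR estimates, bars for 95% intervals and shading for the steps. Filled points mark the 4 members with an unadjusted p under 0.05, and SLC2A3 at -0.45 and MPC2 at 0.29 lie farthest from 0.

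The intervals bound how large a difference could be. For 37 of the 43 members the whole 95% interval of the fold change lay within 1.25-fold in either direction (0.32 on the log2 scale), against 55.8% of all tested genes. The 6 others were SLC2A3, PFKFB2, ENO2, SLC16A3, MPC1 and MPC2. Within 1.5-fold lay 41 members, all but SLC2A3 and PFKFB2, against 81.9% of all tested genes. The median standard error was 0.06 for the members and 0.08 for all tested genes.

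Together the 43 genes took 1.23% to 1.35% of all counts on genes. Their summed level was 12955 ± 582 CPM in VENsens and 13106 ± 365 CPM in VENins (mean ± SD, n = 5 in each group here and below), a difference smaller than either SD. The steps from triose phosphates to pyruvate made up most of it, with 6719 ± 395 CPM in VENsens and 6738 ± 286 CPM in VENins.

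Per kilobase of messenger, ENO1 had the highest level of the 43 before pseudogene counts are considered, with 821 CPM per kilobase in VENsens and 826 in VENins. PKM followed with 774 and 739, GAPDH with 702 and 739, and LDHB with 700 and 724 CPM per kilobase. Per kilobase of all annotated exons GAPDH came first with 453 CPM, ahead of LDHB with 367 and ENO1 with 366. The lowest level per kilobase belonged to PFKFB2, with 0.107 in VENsens and 0.095 in VENins. ENO2, the neuronal enolase, had 0.742 and 0.858 CPM per kilobase, and SLC16A3, a lactate exporter of glycolytic tissues, had 1.82 and 1.91. The levels per kilobase thus spanned from 0.095 to 826 among genes of the same pathway. For aldolase, enolase and the monocarboxylate transporters, 1 isoform carried most of the messenger per kilobase in both groups.

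**Figure D2:**
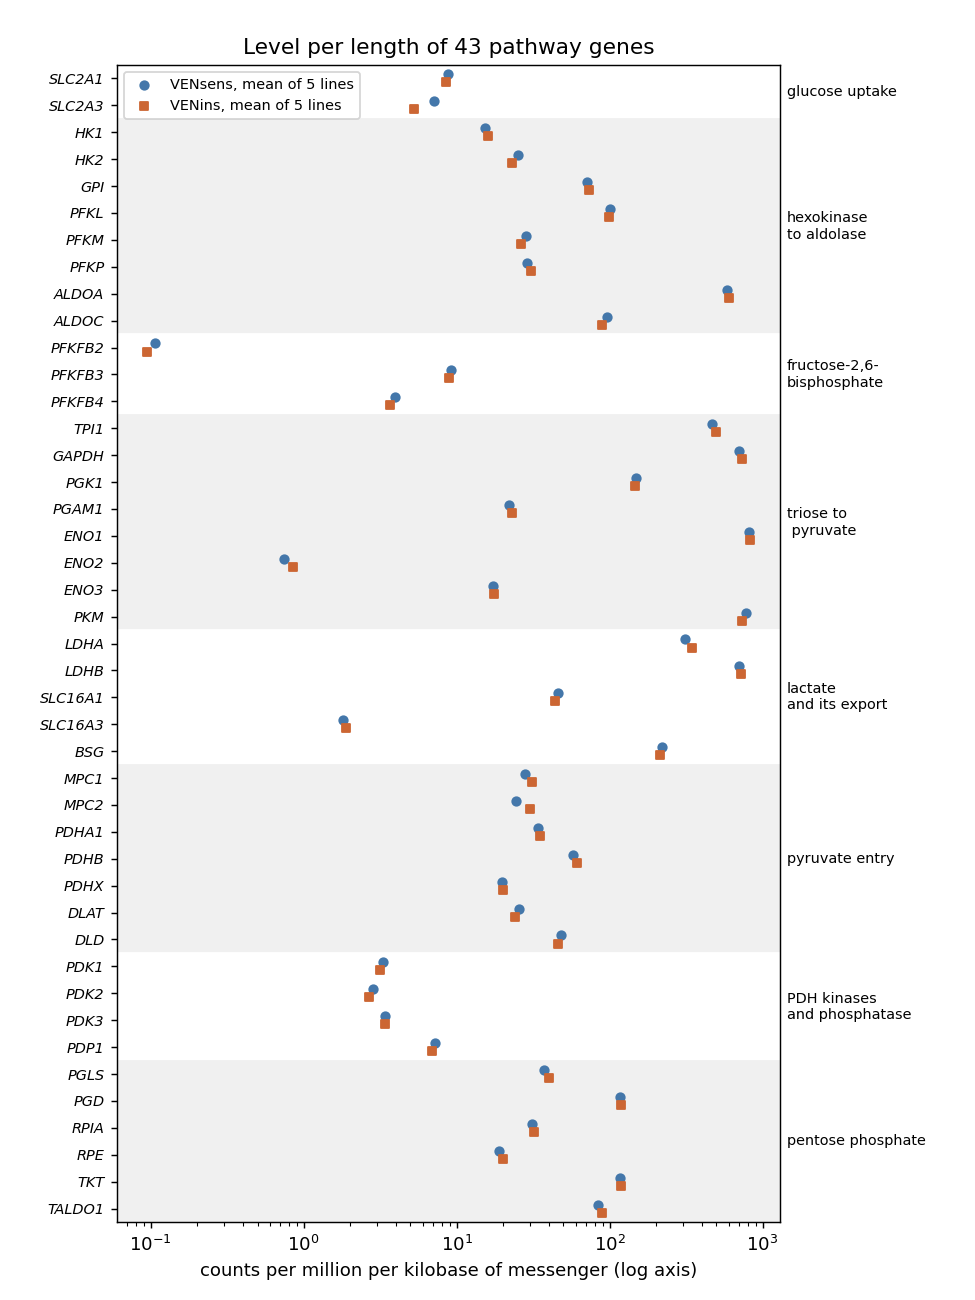
Mean level of each of the 43 genes in VENsens (circles) and VENins (squares), n = 5 lines each, in CPM per kilobase of messenger on a log axis and in pathway order. By this measure, without pseudogene counts, ENO1 is highest at 821 and 826 CPM per kilobase, PFKFB2 is lowest at 0.107 and 0.095, and the symbols of both groups lie close together for nearly every gene.

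These levels are uncertain where reads fall on near-identical pseudogenes, since the alignment with Bowtie2 and the counting could split them. How the alignment placed reads across exon junctions was not tested, and comparisons of level between genes carry that limit. A further 24.6% to 26.15% of the reads were not counted for low alignment quality, and their part in these levels was not tested. GENCODE names 113 pseudogenes after 16 of the members, and for 8 members over 5% of the combined counts lay on them. The share was 42.97% for GAPDH, 38.6% for TPI1, 15.7% for LDHB, 15.3% for PGD, 12.8% for LDHA, 9.0% for HK2, and 6.9% for both PGK1 and PKM. With these counts added to the parent genes, 0 members passed edgeR's adjusted threshold and 4 had an unadjusted p under 0.05, as without them. With them GAPDH came first per kilobase, at 1230 CPM in VENsens and 1295 in VENins, and LDHB also exceeded ENO1 in both groups, PKM in VENsens alone. The library kit does not mark strand, and 27 members overlap an annotated gene on the other strand. For 9 members an overlapping gene had over 10% of the member's level, and for PFKFB2, ENO2, ENO3, SLC16A3 and MPC2 it exceeded the member.

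Glucose enters through SLC2A1 and SLC2A3, and both estimates were lower in VENins. After correction of each library for its trends with GC content and transcript length, the estimate of SLC2A1 was above 0 (0.01).

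SLC2A1 (ENSG00000117394, chromosome 1) encodes GLUT1, the widely expressed basal glucose transporter. Its level was 33.2, 30.6, 33.6, 32.6 and 30.2 CPM in VENsens 1 to 5 and 31.5, 30.6, 31.1, 32.8 and 31.5 CPM in VENins 1 to 5. Every VENins line lay inside the VENsens range. For SLC2A1 the log2 fold change was -0.02 (SE 0.06, adjusted p 0.897).

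SLC2A3 (ENSG00000059804, chromosome 12) encodes GLUT3, a transporter with high affinity for glucose. It was measured at 24.1, 32.0, 27.0, 28.1 and 29.3 CPM in VENsens 1 to 5 and at 19.2, 18.2, 20.5, 27.5 and 17.8 CPM in VENins 1 to 5. VENins 1, 2, 3 and 5 lay below every VENsens line, and VENins 4 lay among them, so that the groups overlapped. The log2 fold change was -0.45 (SE 0.10, 95% interval -0.66 to -0.24) with an adjusted p of 0.0666. Over the alternatives the adjusted p ranged from 8.78e-06 to 0.484. It was 0.0023 with both lines numbered 4 left out and 0.0092 with DESeq2 and the line number. With the length and GC trend taken out it was 0.0432, and in edgeR without the line number 0.055. Leaving out both lines numbered 1, 2, 3 or 5 gave 0.0708, 0.484, 0.115 and 0.120 in that order. Reads of its close relative SLC2A14 amounted to 0 to 0.239 CPM, and no annotated gene overlaps SLC2A3.

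In VENsens the level per kilobase of SLC2A3 was 7.17 CPM beside 8.73 CPM for SLC2A1, and in VENins it was 5.28 beside 8.59 CPM. The ratio of the pair in a library does not depend on how that library is scaled. The log2 ratio of SLC2A3 to SLC2A1 was -0.46, 0.06, -0.31, -0.22 and -0.04 in VENsens 1 to 5 and -0.71, -0.75, -0.60, -0.26 and -0.82 in VENins 1 to 5. VENins 1, 2, 3 and 5 lay below all VENsens lines, and VENins 4 did not. The means were -0.63 ± 0.22 in VENins and -0.19 ± 0.21 in VENsens, a difference of -0.43 (exact two-sided permutation p 0.0238, adjusted over 9 ratios 0.107). With 252 arrangements of the 10 libraries the smallest possible p is 0.0079, at which a ratio alone among 9 would not pass the adjusted threshold.

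The 8 genes from hexokinase to aldolase phosphorylate glucose, isomerise it, phosphorylate it again and split the hexose. Of their estimates 4 were higher in VENins and 4 lower, with a median of 0.01, or of -0.05 without VENins 5 and the line number. The sum over the step was 2095 ± 88.7 CPM in VENsens and 2106 ± 128 CPM in VENins.

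HK2 (ENSG00000159399, chromosome 2) encodes the hexokinase that is induced in many tumours and binds the outer mitochondrial membrane. It was measured at 151, 138, 145, 149 and 145 CPM in VENsens 1 to 5 and at 129.7, 133, 133, 145 and 126 CPM in VENins 1 to 5. VENins 1, 2, 3 and 5 lay below every VENsens line, and VENins 4 lay within their range. The log2 fold change was -0.13 (SE 0.05, 95% interval -0.24 to -0.02) with an adjusted p of 0.244, and it shrank to -0.05 (adjusted p 0.549) with the length and GC trend taken out. AC019069.1, an annotated gene on the other strand within HK2, had 14.5 to 17.7 CPM over the 10 lines and a log2 fold change of 0.01. Per kilobase HK2 averaged 25.2 CPM over the VENsens lines and 23.1 CPM over the VENins lines, beside 15.3 and 16.1 CPM for HK1, the ubiquitous hexokinase. The log2 ratio of HK2 to HK1 was 1.49, 1.33, 1.44, 1.37 and 1.39 in VENsens 1 to 5 and 1.14, 1.31, 1.15, 1.38 and 1.00 in VENins 1 to 5. The same 4 VENins lines lay below all VENsens lines. The difference was -0.21 (exact permutation p 0.0238, adjusted 0.107).

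**Figure D3:**
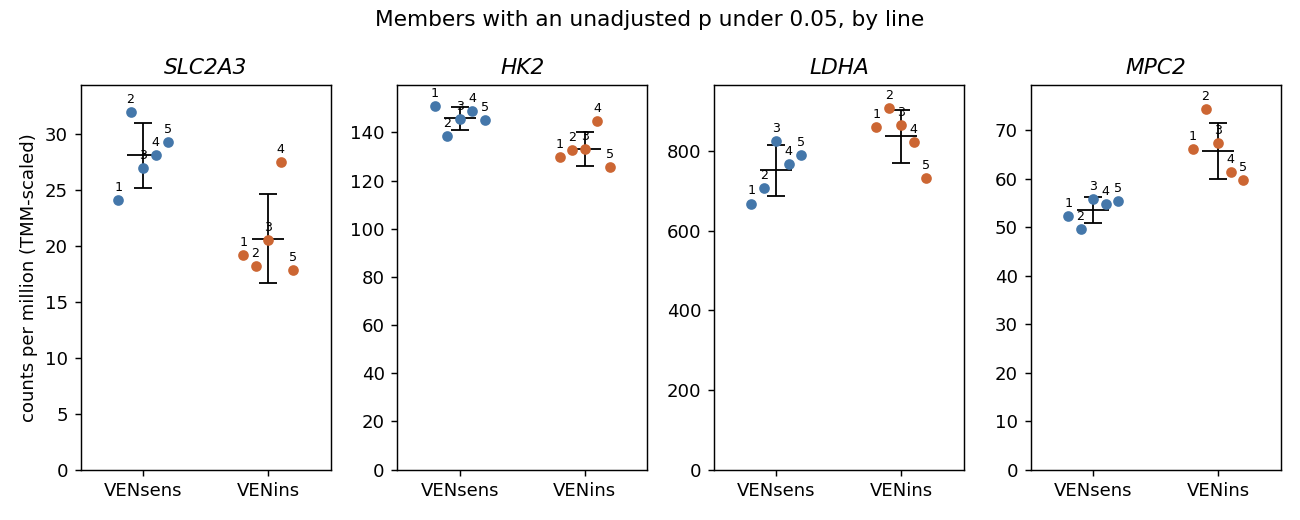
CPM of SLC2A3, HK2, LDHA and MPC2 in each line, numbered 1 to 5, with the mean and SD of each group as a bar and whiskers and the axes starting at 0. VENins 4 sits within the VENsens range for SLC2A3 and HK2, and all 5 VENins lines sit above all VENsens lines for MPC2 but for none of the other genes shown.

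ALDOA (ENSG00000149925, chromosome 16), the main aldolase, had the highest level per kilobase of the step, with 587 CPM in VENsens and 607 CPM in VENins. Its values were 879.6, 858, 997, 1004 and 964 CPM in VENsens 1 to 5 and 912, 962, 927, 967 and 1097 CPM in VENins 1 to 5. VENins 5 was the highest of all lines, and the rest of the VENins lines lay inside the VENsens range. For ALDOA the log2 fold change was 0.05 (SE 0.05, adjusted p 0.714), and it was 0.0006 without VENins 5 and the line number. The 6 genes HK1, GPI, PFKL, PFKM, PFKP and ALDOC had log2 fold changes from -0.12 to 0.08 and adjusted p of 0.365 or more. The ratios PFKP to PFKL, PFKM to PFKL and ALDOC to ALDOA differed by 0.10, -0.08 and -0.17 on the log2 scale (exact permutation p 0.119, 0.524 and 0.151, each adjusted p above 0.2).

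The PFKFB enzymes make and degrade fructose 2,6-bisphosphate, the strongest activator of phosphofructokinase. All 3 estimates were lower in VENins, and that of PFKFB3 was above 0 when the length and GC trend was taken out (0.02) or both lines numbered 2 were left out (0.05).

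PFKFB3 (ENSG00000170525, chromosome 10), the isoform with the highest ratio of kinase to phosphatase activity, had values of 37.9, 51.1, 35.9, 42.4 and 40.3 CPM in VENsens 1 to 5 and 41.2, 39.9, 41.9, 38.2 and 40.1 CPM in VENins 1 to 5. VENsens 2 was the highest line, and the VENins lines lay within the VENsens range. edgeR gave PFKFB3 a log2 fold change of -0.04 (SE 0.08, adjusted p 0.870). PFKFB4 (ENSG00000114268, chromosome 3) had 13.1, 14.97, 14.5, 13.7 and 15.2 CPM in VENsens 1 to 5 and 14.1, 14.3, 11.8, 11.1 and 14.4 CPM in VENins 1 to 5. VENins 3 and 4 lay below every VENsens line. PFKFB4 had a log2 fold change of -0.13 (SE 0.08, adjusted p 0.477). PFKFB2 stayed under 1 CPM in every library (0.472 to 0.976 CPM), and its log2 fold change was -0.18 (adjusted p 0.757).

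From triose phosphates to pyruvate, 8 genes encode the steps that yield ATP and NADH. The estimates were higher in VENins for 5 and lower for 3, with a median of 0.04. Leaving out the line number made this 6 and 2, and leaving out VENins 5 as well made it 4 and 4, with a median of 0.01. None had an unadjusted p under 0.05.

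TPI1 (ENSG00000111669, chromosome 12), which interconverts the triose phosphates, was measured at 525, 542, 609, 580.3 and 609 CPM in VENsens 1 to 5 and at 580.4, 652, 606, 573 and 667 CPM in VENins 1 to 5. VENins 2 and 5 lay above every VENsens line, and VENins 1, 3 and 4 lay among them. For TPI1 the log2 fold change was 0.10 (SE 0.05, adjusted p 0.358). ENO1 (ENSG00000074800, chromosome 1), the ubiquitous enolase, had 1782, 1882, 2005, 1944 and 2015 CPM in VENsens 1 to 5 and 1853, 1898, 1924, 1904 and 2110 CPM in VENins 1 to 5. Only VENins 5 lay outside the VENsens range, above it. edgeR gave ENO1 a log2 fold change of 0.01 (SE 0.05, 95% interval -0.09 to 0.11, adjusted p 0.951), and it was -0.02 without VENins 5 and the line number. The other 6, GAPDH, PGK1, PGAM1, ENO2, ENO3 and PKM, ranged from -0.07 to 0.18 with adjusted p of 0.465 or more. The ratio of ENO2 to ENO1 was highest in VENins 1 and 2, at log2 -9.21 and -9.09, where the other 8 lines lay between -9.99 and -9.62 (group difference 0.16, exact permutation p 0.444).

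Lactate is made by lactate dehydrogenase and leaves through monocarboxylate transporters, which the chaperone basigin (BSG) brings to the membrane. The sum of these 5 genes was 2476 ± 108 CPM in VENsens and 2575 ± 71.1 CPM in VENins. The estimates were higher for 3 and lower for 2, with a median of 0.05. Without VENins 5 and the line number that of SLC16A3 was lower too, which left 2 higher and 3 lower with a median of -0.04.

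LDHA (ENSG00000134333, chromosome 11) encodes the subunit that favours the conversion of pyruvate to lactate. Its level was 668, 707, 826, 768 and 790.5 CPM in VENsens 1 to 5 and 859, 908, 864, 823 and 732 CPM in VENins 1 to 5. VENins 1, 2 and 3 lay above every VENsens line, and VENins 4 and 5 lay within their range. The log2 fold change was 0.16 (SE 0.07, 95% interval 0.01 to 0.30) with an adjusted p of 0.266. LDHB (ENSG00000111716, chromosome 12), the subunit that favours the reverse reaction, had 1071, 1038, 1099, 1063 and 1111 CPM in VENsens 1 to 5 and 1112, 1106, 1152, 1150 and 1046 CPM in VENins 1 to 5. VENins 1, 3 and 4 lay above every VENsens line. For LDHB the log2 fold change was 0.05 (SE 0.05, adjusted p 0.681).

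Per kilobase LDHB exceeded LDHA in both groups, with 700 beside 311 CPM in VENsens and 724 beside 346 CPM in VENins. The log2 ratio of LDHA to LDHB was -0.52 ± 0.10 in VENsens and -0.41 ± 0.09 in VENins (difference 0.11, exact permutation p 0.127). Of the transporters, SLC16A1 (MCT1) stood at 46.1 CPM per kilobase in VENsens and 44.1 in VENins, well above SLC16A3 (MCT4). SLC16A1, SLC16A3 and BSG had log2 fold changes between -0.06 and 0.05 and adjusted p of 0.645 or more. The ratio of SLC16A3 to SLC16A1 differed by 0.10 (exact permutation p 0.667).

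Pyruvate enters the mitochondrial matrix through the carrier formed by MPC1 and MPC2, and the pyruvate dehydrogenase complex turns it into acetyl-CoA. The estimates of 5 of the 7 genes were higher in VENins and of 2 lower, with a median of 0.04.

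MPC2 (ENSG00000143158, chromosome 1) was measured at 52.2, 49.6, 55.8, 54.9 and 55.4 CPM in VENsens 1 to 5 and at 66.1, 74.3, 67.4, 61.4 and 59.7 CPM in VENins 1 to 5. All VENins lines lay above all VENsens lines, with means of 65.8 ± 5.75 and 53.6 ± 2.61 CPM. The log2 fold change was 0.29 (SE 0.07, 95% interval 0.15 to 0.44) with an adjusted p of 0.0841. Over the alternatives the adjusted p ranged from 0.00136 to 0.484. It was 0.0198 with DESeq2 and the line number, 0.0382 in edgeR without the line number, and 0.0128 there without VENins 5. With both lines numbered 4 left out it was 0.0428, and with the length and GC trend taken out 0.0474. Leaving out both lines numbered 1, 2, 3 or 5 gave 0.111, 0.484, 0.158 and 0.0886 in that order.

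On the other strand MPC2 is overlapped by DCAF6, and without strand their reads cannot be told apart where exons meet. DCAF6 had 60.1, 68.3, 58.4, 62.2 and 65.6 CPM in VENsens 1 to 5 and 69.2, 72.6, 65.5, 59.3 and 66.4 CPM in VENins 1 to 5. Its groups overlapped, with VENins 1 and 2 above every VENsens line. Its log2 fold change was 0.08 (SE 0.06, adjusted p 0.517). Its part in the MPC2 counts was not tested.

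MPC1, the partner of MPC2, has no annotated gene overlapping it. Its mean was 26.8 ± 2.41 CPM in VENsens and 29.9 ± 2.23 CPM in VENins, with a log2 fold change of 0.16 (SE 0.08, adjusted p 0.357), and 3 VENins lines lay above the highest VENsens line. PDHB (ENSG00000168291, chromosome 3), the beta subunit of the dehydrogenase and the member of this step with the highest level per kilobase, had 84.2, 84.2, 93.0, 84.4 and 93.6 CPM in VENsens 1 to 5 and 92.4, 98.0, 96.9, 91.1 and 87.8 CPM in VENins 1 to 5. VENins 2 and 3 lay above every VENsens line. PDHB had a log2 fold change of 0.09 (SE 0.06, adjusted p 0.491). PDHA1, PDHX, DLAT and DLD, which complete the complex, ranged in log2 fold change from -0.08 to 0.04.

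The pyruvate dehydrogenase kinases switch the complex off by phosphorylation, and the phosphatase PDP1 switches it on. The estimates of all 4 genes were lower in VENins, and those of PDK1 (0.01) and PDK3 were above 0 when the length and GC trend was taken out. PDK3 was also above 0 with both lines numbered 1, or both numbered 5, left out.

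PDK1 (ENSG00000152256, chromosome 2) had 47.8, 45.7, 46.6, 47.1 and 47.6 CPM in VENsens 1 to 5 and 45.4, 45.7, 47.6, 47.4 and 37.3 CPM in VENins 1 to 5. VENins 5 was far below every other line. VENins 1 was just below the VENsens range, and VENins 2, 3 and 4 lay inside it. For PDK1 the log2 fold change was -0.08 (SE 0.07, adjusted p 0.611), and it was -0.01 without VENins 5 and the line number. PDP1 (ENSG00000164951, chromosome 8) had 30.1, 36.3, 28.3, 30.1 and 29.8 CPM in VENsens 1 to 5 and 31.9, 31.8, 29.4, 27.1 and 26.8 CPM in VENins 1 to 5. VENsens 2 was the highest line, and VENins 4 and 5 were the lowest. edgeR gave PDP1 a log2 fold change of -0.07 (SE 0.07, adjusted p 0.655). The estimate was -0.04 without VENins 5 and the line number, and -0.04 with both lines numbered 2 left out. PDK2 and PDK3 had log2 fold changes of -0.09 and -0.01, and the ratio of PDK1 to PDK3 differed by -0.07 (exact permutation p 0.421).

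The pentose phosphate genes listed run from the lactonase PGLS and the dehydrogenase PGD through the pentose isomerase RPIA and epimerase RPE to transketolase and transaldolase. Their estimates were higher in VENins for 6 of 6, with a median of 0.07, and the lowest adjusted p was 0.423. Without VENins 5 and the line number the estimate of TKT was -0.02, which left 5 of 6 higher, as did leaving out both lines numbered 2, where PGD was lower. The sum over the 6 genes was 832 ± 34.2 CPM in VENsens and 857 ± 36.2 CPM in VENins, a difference smaller than either SD.

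TKT (ENSG00000163931, chromosome 3), transketolase, had 369, 351, 349.8, 354 and 348 CPM in VENsens 1 to 5 and 345, 352, 341, 365 and 396 CPM in VENins 1 to 5. VENins 5 was the highest line, and VENins 1 and 3 were the lowest. TKT had a log2 fold change of 0.02 (SE 0.05, adjusted p 0.892), which rose to 0.11 (adjusted p 0.143) with the length and GC trend taken out. TALDO1 (ENSG00000177156, chromosome 11), transaldolase, had 117, 101, 117, 114 and 115 CPM in VENsens 1 to 5 and 119.6, 122, 119, 113 and 129 CPM in VENins 1 to 5. VENins 1, 2, 3 and 5 lay above every VENsens line, and VENins 4 lay among them. For TALDO1 the log2 fold change was 0.10 (SE 0.06, adjusted p 0.423). PGLS, PGD, RPIA and RPE ranged from 0.02 to 0.12 with adjusted p of 0.444 or more.

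Across the 9 ratios between isoenzymes of a step, 2 had an exact permutation p under 0.05 before adjustment (SLC2A3 to SLC2A1 and HK2 to HK1), and 0 had an adjusted p under 0.05. In both ratios VENins 4 was the VENins line that lay within the VENsens range.

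**Figure D4:**
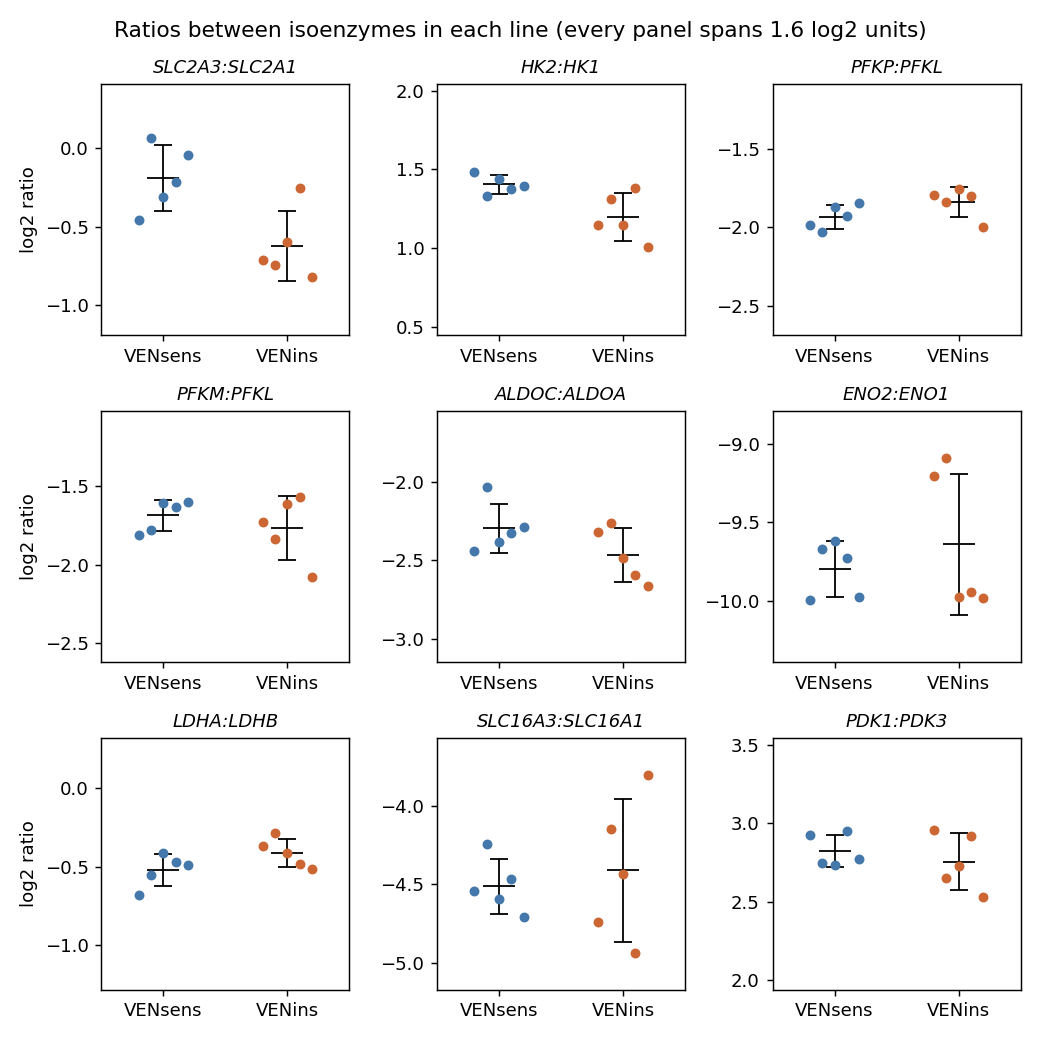
Log2 ratio of the CPM of 9 pairs of isoenzymes in each line, with the mean and SD of each group as a bar and whiskers and every panel spanning the same range. For SLC2A3 to SLC2A1 and HK2 to HK1, 4 of the 5 VENins lines lie below all VENsens lines, and for ENO2 to ENO1 VENins 1 and 2 lie above the rest.

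The lines differed among themselves as well as between groups. VENins 5 held the highest value of the 10 lines for 15 members and the lowest for 7, so that 22 of the 43 genes had an extreme there. VENsens 2 was highest for 4 and lowest for 12 members, and no other line held more than 11 extremes. In VENins 5 the deviation of a member from its mean over the lines went with the GC content of its transcript (Spearman's rho 0.75 across 43 genes, beside 0.54 across 16312 tested genes). In VENsens 2 the deviation went with transcript length (rho 0.67 across 43 genes). All points of such a correlation share a library, its depth and its base composition, and genes are not independent replicates. With each library's trend on length and GC content taken out, edgeR called 2 members, SLC2A3 and MPC2, beside 156 of 16312 tested genes (0.956%).

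**Figure D5:**
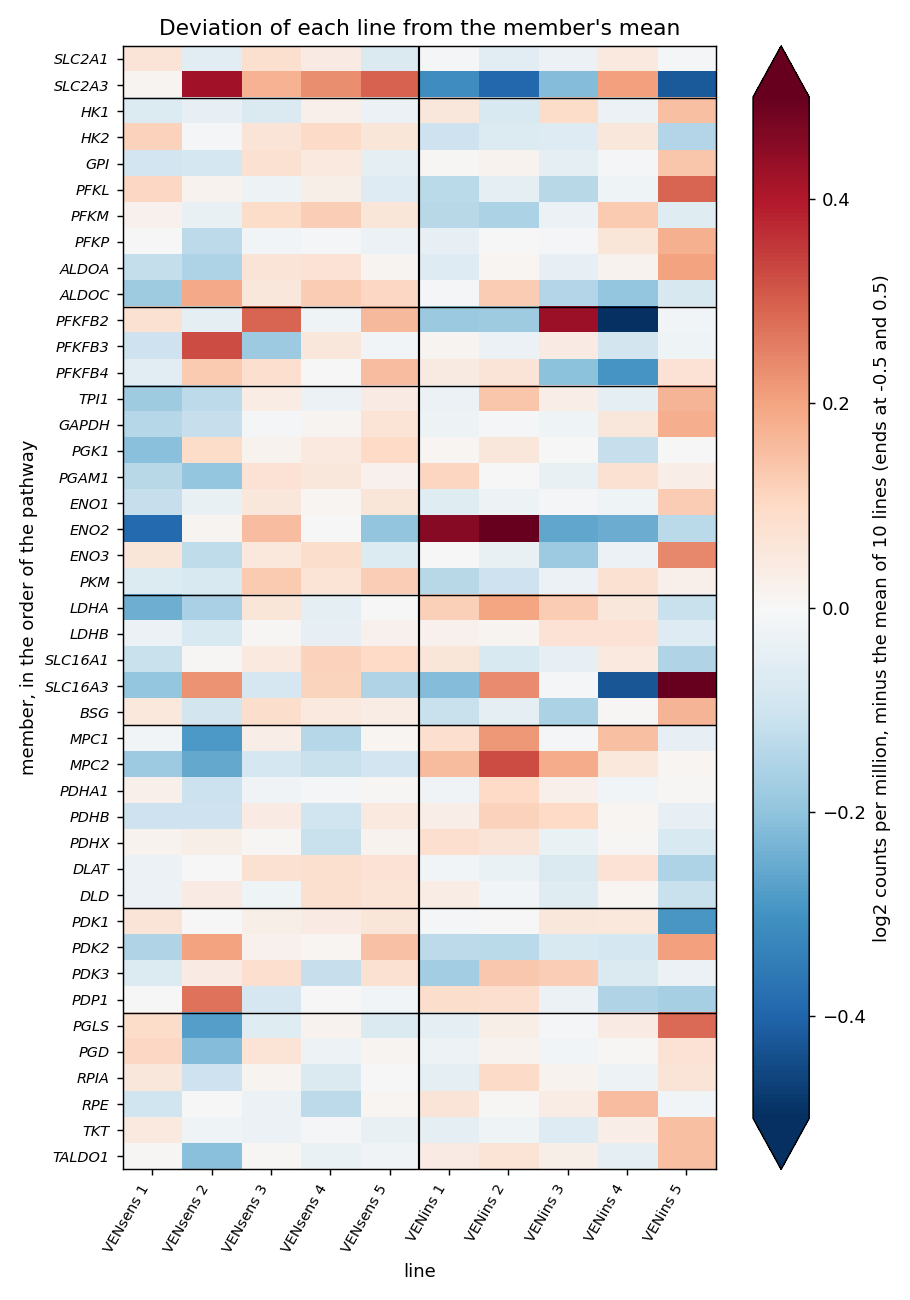
Log2 CPM of each of the 43 genes in each line, as the deviation from the mean of the gene over the 10 lines, in pathway order with lines between the steps. VENins 5 holds an extreme for 22 genes, and the SLC2A3 values of VENins 1, 2, 3 and 5 stand below those of the VENsens lines and VENins 4.

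Of the members with an unadjusted p under 0.05, SLC2A3 is not held by the RefSeq promoter table. Promoter sequences of the others are shown, so that the letters searched for can be read in place. Each runs from 250 bases before to 50 bases after the transcript start on GRCh38.p14, 5′ to 3′ on the gene's strand, and is the first window listed for the gene. Capitals mark the 5 letters ACGTG, a form of the core that hypoxia-inducible factors bind, or their reverse complement CACGT. The palindrome CACGTG, the core of the E-box that basic helix-loop-helix factors bind, contains both. Other forms of the core of hypoxia-inducible factors are neither marked nor counted. HK2 is at chr2:74833877-74834176 on the + strand, LDHA at chr11:18394313-18394612 on the + strand, and MPC2 at chr1:167935947-167936246 on the - strand.
HK2: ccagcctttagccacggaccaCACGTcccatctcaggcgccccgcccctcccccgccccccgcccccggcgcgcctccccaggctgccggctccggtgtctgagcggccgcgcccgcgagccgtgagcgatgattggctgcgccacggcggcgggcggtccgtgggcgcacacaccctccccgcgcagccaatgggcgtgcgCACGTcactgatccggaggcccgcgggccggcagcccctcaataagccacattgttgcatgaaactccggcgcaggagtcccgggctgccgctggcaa
LDHA: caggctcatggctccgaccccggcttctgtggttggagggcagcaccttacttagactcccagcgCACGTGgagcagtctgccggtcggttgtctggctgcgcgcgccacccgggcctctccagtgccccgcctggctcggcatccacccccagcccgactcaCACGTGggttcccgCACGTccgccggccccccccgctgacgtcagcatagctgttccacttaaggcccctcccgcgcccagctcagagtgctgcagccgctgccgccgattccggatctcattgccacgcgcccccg
MPC2: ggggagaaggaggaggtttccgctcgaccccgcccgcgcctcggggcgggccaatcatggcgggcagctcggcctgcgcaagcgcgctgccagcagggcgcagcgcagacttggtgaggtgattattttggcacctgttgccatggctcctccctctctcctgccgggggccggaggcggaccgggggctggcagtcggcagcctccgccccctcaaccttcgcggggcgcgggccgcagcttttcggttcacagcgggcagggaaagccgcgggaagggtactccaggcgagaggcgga

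Counting each strand, ACGTG occurs 2 times in the HK2 window shown, 5 times in that of LDHA and 0 times in that of MPC2. Further windows of these genes are not shown. Of 2 HK2 windows, both hold ACGTG, up to 4 times, and 1 holds CACGTG. Of 2 LDHA windows 1 holds ACGTG, and of 3 MPC2 windows 0 do. The table held 73 windows for 39 of the 43 members, and ACGTG on either strand was in 25 of them (34.2%), beside 21.4% of all 35116 windows. CACGTG was in 9 of the 73 (12.3%), beside 7.26% of all windows. A match is a description, not a site or a cause, and no match says only that these letters are not in that window. HK2 and LDHA, both with matches, had estimates of opposite sign.

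The wider pathway was read from a second list of 35 genes, of which 24 had enough counts to be tested. The 11 others include HK3, PGAM2, PDK4, ME1 and TKTL1. By edgeR 0 of the 24 passed the adjusted threshold, and the median log2 fold change was 0.00. At an unadjusted p under 0.05, 2 were higher and 3 lower in VENins, together 20.8% beside 16.2% of all tested genes. DESeq2 called 2 of them when the model held the line number (1.3% of all tested genes) and 4 when it did not (4.41%), and edgeR without the line number called 2 (0.889%).

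PDPR, the regulatory subunit of pyruvate dehydrogenase phosphatase, had 43.1, 50.1, 37.7, 45.0 and 45.9 CPM in VENsens 1 to 5 and 38.1, 32.2, 33.3, 38.3 and 35.0 CPM in VENins 1 to 5. VENins 2, 3 and 5 lay below every VENsens line. edgeR gave PDPR a log2 fold change of -0.32 (SE 0.07, adjusted p 0.0761, range over alternatives 0.00161 to 0.484). PDP2, the second catalytic phosphatase, had 24.04, 32.8, 24.3, 27.2 and 26.6 CPM in VENsens 1 to 5 and 23.7, 20.1, 22.01, 24.2 and 20.6 CPM in VENins 1 to 5. VENins 1, 2, 3 and 5 lay below every VENsens line. PDP2 had a log2 fold change of -0.28 (SE 0.09, adjusted p 0.153, range 0.0299 to 0.584), and of -0.18 with both lines numbered 2 left out.

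H6PD, which feeds a pentose phosphate branch inside the endoplasmic reticulum, had 130.1, 129.9, 109, 120.0 and 117 CPM in VENsens 1 to 5 and 101, 93.1, 103, 97.1 and 105 CPM in VENins 1 to 5. All VENins lines lay below all VENsens lines. For H6PD the log2 fold change was -0.28 (SE 0.06, adjusted p 0.0792, range 0.00111 to 0.484), and with the length and GC trend taken out it was -0.17. Its estimate thus had the opposite sign to those of the 6 cytosolic pentose phosphate genes.

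Another list held 21 genes outside the pathway that respond to low oxygen or to glucose, of which 17 were tested. EGLN3, CA9 and ADM had too few counts, and TXNIP is listed at 0 in every library under its GENCODE 29 identifier, so that its level was not read. By edgeR 0 of the 17 passed the adjusted threshold, 0 were higher and 3 lower at an unadjusted p under 0.05 (17.6% beside 16.2% of all tested genes), and the median log2 fold change was -0.03. DESeq2 with the line number called 1 (1.3% of all tested genes), DESeq2 without it 1 (4.41%), and edgeR without it 1 (0.889%). HIF1A, the oxygen-regulated subunit of the hypoxia-inducible factor, had a log2 fold change of -0.09 (SE 0.06, adjusted p 0.507).

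NDRG1, a gene induced by low oxygen, had 26.4, 33.3, 25.1, 28.1 and 26.6 CPM in VENsens 1 to 5 and 22.1, 23.4, 22.4, 21.9 and 21.6 CPM in VENins 1 to 5. All VENins lines lay below all VENsens lines. edgeR gave NDRG1 a log2 fold change of -0.32 (SE 0.07, adjusted p 0.0691, range 0.00398 to 0.484). MLXIP, a glucose-sensing transcription factor, had 103, 116, 106, 101 and 95.7 CPM in VENsens 1 to 5 and 92.2, 92.0, 94.3, 93.8 and 94.9 CPM in VENins 1 to 5. Its groups did not overlap either, VENins being lower by -0.16 on the log2 scale (SE 0.06, adjusted p 0.200), or by -0.06 (adjusted p 0.444) with the length and GC trend taken out. ARRDC4, a glucose-responsive arrestin, averaged 16.4 ± 0.99 CPM over the VENsens lines and 14.4 ± 1.88 CPM over the VENins lines, with overlapping groups and a log2 fold change of -0.19 (SE 0.08, adjusted p 0.266).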

How the data were processed

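RNA of 10 RS4;11 lines was sequenced, 1 library per line, 5 VENsens and 5 VENins. The authors aligned the reads to hg19 (GRCh37) with Bowtie2 2.3.5.1 and deposited raw HTSeq 0.9.1 read counts per gene, whose annotation release and strand setting are not stated. GENCODE 29 named 52526 of 63677 identifiers, and 0.907% of counts lay on unnamed ones. Genes kept by filterByExpr were fitted in edgeR 4.0.16 (R 4.3.3) by quasi-likelihood with TMM scaling, the line number and the group, and p-values were Benjamini-Hochberg adjusted over 16756 genes. Isoenzyme ratios of log2 CPM (prior count 2) were compared by exact permutation, with SciPy 1.17.1 for correlations.

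Members named with every line were, in each step, that with the smallest p and that with the highest level per kilobase, and all with an unadjusted p under 0.05. From the further lists, the 3 with the smallest p were named, and MPC1, HIF1A, CSF1R, DCAF6 and SLC2A14 were added after values were seen. By exon length in place of messenger length, other members were highest in 3 steps. The members and lists were chosen with earlier results of these data known. Alternatives were DESeq2 1.42.0, no line number, other scalings and filters, each number left out, pseudogene counts added, and length and GC trends removed. The fits were tested on simulated data.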

Additional observations from a re-analysis of the deposited data

Results flagged for a closer look

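In 11 of 104 groups of 5 values (43 genes and 9 ratios in each group of lines), 1 line lay farther from the nearest other line than chance usually gives, and chance flags about 1 in 20 groups. Of these, 5 were VENins 5, 4 were VENsens 2, 1 was VENsens 1 and 1 was VENsens 4.

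In VENins 5, PFKL was at 356 CPM where the other VENins lines had 264 to 287. ENO1 was at 2110 CPM there, beside 1853 to 1924 in the others. PDK2 had 10.9 CPM beside 8.62 to 8.99, and PGLS had 48.4 CPM beside 38.6 to 40.9. PDK1 was low in that line, with 37.3 CPM beside 45.4 to 47.6.

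In VENsens 2, PFKP was at 72.0 CPM beside 77.2 to 78.8 in the other VENsens lines, BSG at 403 CPM beside 441 to 457, and TALDO1 at 101 CPM beside 114 to 117. PDP1 was high there, with 36.3 CPM beside 28.3 to 30.1. PGK1 was low in VENsens 1, with 627 CPM beside 734 to 776, and PDHX was low in VENsens 4, with 44.3 CPM beside 48.0 to 48.8.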

How the results depend on the processing

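The line numbers did not pair the samples: deviations of same-numbered lines correlated at -0.10, 0.03, -0.02, 0.01 and -0.08, and no line correlated best with its own number. The replicate block stayed in the model because the study describes a paired analysis. Without the block 149 genes passed the adjusted threshold in place of 33, and 1 member in place of 0.

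Members with an adjusted p under 0.05 numbered 2 with DESeq2 and the block, 2 with DESeq2 without it, 2 with no filter on low counts, 2 with the length and GC trend taken out with the block and 2 without it, 1 without VENins 5 and the block, and 0 to 2 with each line number left out (2 without number 4). All tested genes past it numbered 217, 739, 664, 156, 379 and 502 in the same order, and 6 to 331 with a number left out. Members with an unadjusted p under 0.05, 4 as reported, numbered 7 with no filter (16.3%, beside 9.89% of all genes in that fit), 9 with the trend taken out and no block (20.9% beside 20%), and 9 without VENins 5 and the block (20.9% beside 20.6%). The trend fit without the block and the fit without VENins 5 were chosen after seeing the data. The causes of these shifts were not tested. The median log2 fold change of the members stayed between -0.01 and 0.03 over 16 alternatives.

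Some estimates near 0 changed sign. With the trend taken out, with and without the block, SLC2A1 was 0.0098 and 0.0094, PFKFB3 0.0168 and 0.0114, and PDK1 0.0136 and 0.0134. Without VENins 5 and the block, ENO1 was -0.0244 and TKT -0.0155. With a number left out, PFKFB3 ran from -0.1011 to 0.0458, ENO1 from -0.0053 to 0.0255 and TKT from -0.0215 to 0.0498. The ratio ENO2 to ENO1 ran from -0.0001 to 0.2855, PFKM to PFKL from -0.1192 to 0.0205 and SLC16A3 to SLC16A1 from -0.102 to 0.2425. For the ratios 0 had an exact adjusted p under 0.05 in each of 8 alternatives, which is no sign of stability: with the block the smallest sign-flip p is 0.0625, and in the others a ratio alone among 9 could not pass after adjustment.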

Other observations

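From the list of other pathway genes DERA, which splits deoxyribose 5-phosphate into a triose phosphate and acetaldehyde, was singled out after its values were seen. It had 54.2, 50.8, 51.5, 54.6 and 51.8 CPM in VENsens 1 to 5 and 59.99, 60.8, 61.7, 57.4 and 57.0 CPM in VENins 1 to 5. All VENins lines lay above all VENsens lines, with a log2 fold change of 0.18 (SE 0.06, edgeR adjusted p 0.159, range over the alternatives 0.0136 to 0.564).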
